A study of Mus musculus with 235 samples.

Results

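The genes described here encode 10 hepatic enzymes that use pyridoxal phosphate, the active form of vitamin B6, as their cofactor. They are Got1, Got2, Gpt, Gpt2, Tat, Agxt, Agxt2, Kynu, Oat and Aadat. They were taken by symbol from the array annotation, and all 10 were found among the 18146 genes that carried a probe set named for 1 gene alone. They had 18 such probe sets, 0 of them shared with another symbol, and each gene is represented by its probe set with the highest mean. In an aminotransferase, pyridoxal phosphate accepts the amino group of an amino acid and hands it to a keto acid, which ties the breakdown of amino acids to glutamate, pyruvate and oxaloacetate. Of these genes, 9 encode aminotransferases. Kynu encodes kynureninase, a pyridoxal phosphate enzyme that cleaves kynurenine and moves no amino group. Isoniazid, a hydrazide used against tuberculosis, is known to react with pyridoxal phosphate and to lower vitamin B6 in patients. The enzymes' own activity was not measured here, only the RNA of their genes.

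The study dosed female mice of 31 inbred strains, 8 to 10 weeks old, with isoniazid at 100 mg/kg or with its vehicle, sterile water, given by gavage on 3 days, and took the left liver lobe 24 h after the last dose. One array was run per animal, giving 124 vehicle and 111 isoniazid arrays, with 4 vehicle animals in every strain. There were 4 isoniazid animals in 22 strains, 3 in 5 strains and 2 in 4 strains, since animals that died before the end were left out, so the isoniazid values are those of survivors. The submitters coded 13 strains as having steatosis, fat accumulation in liver cells, namely BALB/cJ, FVB/NJ, CBA/J, DBA/2J, SJL/J, BTBR T+ tf/J, C57BLKS/J, NOR/LtJ, NZW/LacJ, SWR/J, BUB/BnJ, CE/J and LG/J. The other 18 strains were C3H/HeJ, C57Bl/6J, AKR/J, LP/J, MRL/MpJ, PL/J, SM/J, C57BR/cdJ, C58/J, KK/HIJ, NON/LtJ, MA/MyJ, PWK/PhJ, RIIIS/J, SEA/GnJ, 129S1/SvImJ, A/J and NOD/LtJ. All animals carried the genotype of their inbred strain alone, with no engineered allele given in the labels. Of the 9 strains with missing isoniazid animals, 1 was a steatosis strain.

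All values are log2 expression values of the authors, and levels of different genes are not compared, since probe sets differ in their response. Array medians ran from 3.96 to 4.21, and arrays of the same strain and treatment correlated at 0.955 to 0.995 over all probe sets. A set of 21 arrays, 10 isoniazid and 11 vehicle, had a narrower spread of values than the other arrays (SD at most 2.20 against at least 2.23). In these 21 arrays Agxt2 lay on average 0.26 below its group mean, Aadat 0.17 below, Gpt 0.15 below and Got1 0.11 below. The arrays were scanned in 10 sessions, each with 22 to 24 arrays of both treatments. In PWK/PhJ, isoniazid animal 1 had the highest value of the isoniazid animals in Got1, Gpt2, Tat, Agxt, Kynu and Oat. It did not stand apart in each of them. In Gpt2 animal 2 was close to it, at 12.45 against 12.47, and in Kynu animal 2 was far below the others, at 7.98. The check for an animal far from the other 3, given at the end, flagged no PWK/PhJ group. The PWK/PhJ changes that removal of animal 1 moved by over 1.5 times or across the threshold are given below with and without it. This animal was singled out after its values in these genes were seen, so every p and call without it depends on that choice. Probes follow a reference sequence, so that a variant carried by a strain can lower a probe set in all animals of the strain. Both treatments of a strain share such a variant. Whether it also alters the size of the isoniazid effect, and so the comparison of effects between strains, was not tested.

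Isoniazid raised 6 of the 10 genes when the 31 strains served as replicates, Got1, Got2, Gpt, Agxt2, Kynu and Oat, and lowered 0 of them. Over all 18146 genes, 10.2% were called higher, 9.85% lower and 20.0% in either direction at an adjusted p under 0.05 (limma, Benjamini-Hochberg). Leaving out the dimmest 40% of genes kept all 10 members, and the called share was then larger, with 3559 of 10888 genes, 1806 of them higher. The median change of the 10 genes was 0.17 on the log2 scale, against 0.001 for all genes. The 10 genes were chosen with earlier results of these data known, so this contrast and the count of 6 are descriptive. The sizes were small except for Got1, at 1.56-fold, and lay between 1.10-fold for Got2 and 1.35-fold for Agxt2 in the other 5. Gpt2, Tat, Agxt and Aadat did not pass. Got2, Agxt2, Kynu and Oat, 4 of the 10, were higher in at least 28 of the 31 strains, as were 1.40% of all genes. Scan sessions were compared after centring each animal on the midpoint of its strain's vehicle and isoniazid means, taken over all sessions. The strain-centred difference between isoniazid and vehicle animals was above 0 for Got1, Got2, Gpt, Agxt2, Kynu and Oat, in 10 of 10 sessions each. Because the strain means come from all sessions, the sessions are not independent of each other.

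**Figure D1:**
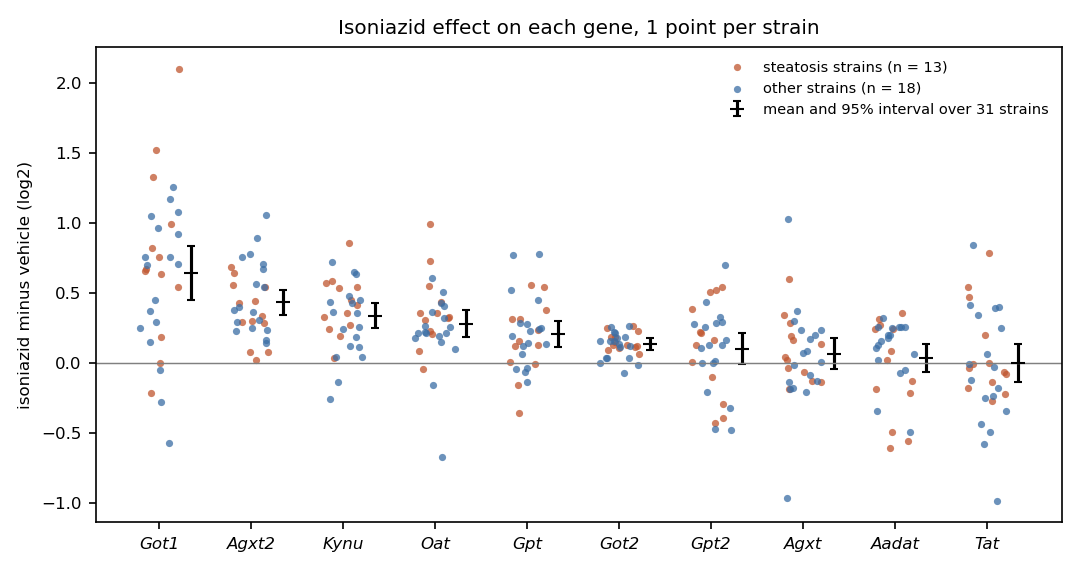
Isoniazid effect (isoniazid mean minus vehicle mean, log2) on the vertical axis for each of the 10 genes on the horizontal axis, with 1 point per strain coloured by the steatosis code and the mean with its 95% interval over 31 strains in black. Got1 had the highest mean, 0.64, and the widest spread, from -0.57 in PWK/PhJ to 2.10 in NZW/LacJ, while every Agxt2 point lies above 0.

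Got1 encodes the cytosolic aspartate aminotransferase, which exchanges the amino group between aspartate and glutamate and forms the cytosolic end of the malate-aspartate shuttle. Over the 31 strains, vehicle means of Got1 had a lowest value of 8.83, a median of 10.90 and a highest of 12.66. Isoniazid means had a lowest of 10.67, a median of 11.63 and a highest of 12.91, so that the 2 distributions overlapped but the low end moved up. The mean went from 10.96 ± 0.79 to 11.60 ± 0.59 (SD over strains, n = 31), a log2 change of 0.64 with a standard error of 0.09 (95% interval 0.45 to 0.84, limma adjusted p = 3.57e-06). The isoniazid mean was above the vehicle mean in 26 of 31 strains. Over the 10 scan sessions the strain-centred difference ran from 0.28 to 0.95.

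In NZW/LacJ, the 4 vehicle animals had Got1 values of 8.59, 8.78, 8.54 and 9.41, and the 4 isoniazid animals 10.70, 11.16, 10.71 and 11.17. All isoniazid animals lay above all vehicle animals, by 4.29-fold in the means (adjusted p = 6.30e-06 within the strain). In BUB/BnJ, vehicle values of 9.78, 10.50, 10.95 and 9.67 stood against isoniazid values of 12.00, 12.09, 11.44 and 11.48, again without overlap (2.88-fold, adjusted p = 0.0414). These were the 2 strains in which Got1 passed on its own. In 12 strains all isoniazid animals lay above all vehicle animals, and in 0 strains all lay below. Over all pairs of a gene and a strain, 5.04% were without overlap upward and 4.53% downward.

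In PWK/PhJ, vehicle values of Got1 were 11.10, 13.01, 12.42 and 12.50, and isoniazid values 13.55, 12.13, 10.36 and 10.72. Isoniazid animal 1 held the highest of the 8 values and animals 3 and 4 the lowest. The change in PWK/PhJ was -0.57 with all animals (adjusted p = 0.38) and -1.19 without isoniazid animal 1 (adjusted p = 0.0214, chosen after its values were seen). The change over strains was 0.62 without that animal and 0.64 with it.

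Got2 encodes the mitochondrial aspartate aminotransferase, the other end of the shuttle. Its vehicle means ran from 11.54 through a median of 11.77 to 11.96, and its isoniazid means from 11.65 through 11.90 to 12.06. The mean went from 11.76 ± 0.10 to 11.90 ± 0.10, a log2 change of 0.14 with a standard error of 0.02 (adjusted p = 2.90e-06), and was above the vehicle mean in 29 of 31 strains. The change was thus small and alike from strain to strain, with C57Bl/6J lowest at -0.07 and BTBR T+ tf/J highest at 0.27. It passed within PWK/PhJ, C58/J, BTBR T+ tf/J, DBA/2J and NZW/LacJ. In BTBR T+ tf/J the vehicle animals had 11.85, 11.80, 11.72 and 11.79 and the isoniazid animals 11.96, 12.17, 11.97 and 12.12, with no overlap. A second Got2 probe set changed by the same 0.14, while 2 dim ones, at mean levels of 3.96 and 2.32, changed by 0.02 each and did not pass.

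The response of Got1 exceeded that of Got2 in 26 of 31 strains. The difference of the 2 changes was 0.51 ± 0.57 (SD, n = 31), with a two-sided sign-flip permutation p of 2.00e-05 (100000 resamples) and 3.00e-05 after adjustment over the 3 isozyme pairs compared. The 5 strains in which Got1 changed less than Got2 included PWK/PhJ, where Got2 rose by 0.27.

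Gpt and Gpt2 encode the cytosolic and the mitochondrial alanine aminotransferase, which interconvert alanine and pyruvate. Their activity in serum is the clinical sign of liver cell damage, and that release is not what an RNA level measures. Vehicle means of Gpt ran from 10.37 through 11.001 to 11.57, and isoniazid means from 10.69 through 11.26 to 11.79. The mean went from 11.04 ± 0.27 to 11.24 ± 0.23, a log2 change of 0.21 with a standard error of 0.04 (adjusted p = 0.000755), and was higher in 24 of 31 strains. Gpt passed within C58/J, PWK/PhJ, DBA/2J and AKR/J. In C58/J, vehicle values of 10.73, 10.74, 10.33 and 10.70 stood against isoniazid values of 11.40, 11.41, 11.11 and 11.70, with no overlap (1.72-fold). In SJL/J the change was -0.36 and did not pass. A second Gpt probe set, of mean level 7.96, changed by 0.01 (adjusted p = 0.945), so that the 2 probe sets of this gene disagree.

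Gpt2 had vehicle means from 10.37 through 11.18 to 12.20 and isoniazid means from 10.24 through 11.38 to 12.31. Its mean change was 0.10 with a standard error of 0.05 (95% interval -0.01 to 0.21, adjusted p = 0.208), and its isoniazid mean was above the vehicle mean in 22 of 31 strains. It passed within AKR/J, where vehicle animals had 10.43, 10.45, 10.49 and 10.10 and isoniazid animals 11.26, 10.89, 11.01 and 11.12 (1.62-fold), and within NOR/LtJ at 0.54. At the other end, 129S1/SvImJ was at -0.48 and LP/J at -0.47, and neither passed. PWK/PhJ was at -0.32 with all animals and at -0.52 without isoniazid animal 1 (adjusted p = 0.181 and 0.0172). The Gpt2 call over strains depended on the probe set: 3 other probe sets changed by 0.11, 0.13 and 0.33, and the last of these passed. The changes of Gpt and Gpt2 differed by 0.11 ± 0.32 (n = 31; Gpt larger in 18 strains), with a permutation p of 0.0704 alone and after adjustment, so a difference between the 2 was not shown. With scan session as a term it was 0.12, with an adjusted permutation p of 0.0481, and without animal number 1 it was 0.15, with 0.0173.

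Tat encodes tyrosine aminotransferase, the first step of tyrosine breakdown and a long-used example of a liver gene induced by glucocorticoids. Its mean was 11.75 ± 0.63 with vehicle and 11.75 ± 0.61 with isoniazid, a change of 0.00 with a 95% interval of -0.13 to 0.14 (adjusted p = 0.991). Beneath that mean the strains ran from -0.98 in MA/MyJ, which had 2 isoniazid animals, to 0.84 in NOD/LtJ, with 12 strains above 0 and 19 below. Tat passed within NZW/LacJ alone. There the vehicle animals had 10.58, 10.01, 10.65 and 10.35 and the isoniazid animals 11.04, 11.24, 11.06 and 11.40, with no overlap (1.72-fold, adjusted p = 0.0369). In NOD/LtJ, vehicle values of 10.31, 11.36, 10.96 and 11.27 lay below isoniazid values of 11.78, 11.56, 12.02 and 11.90, although the adjusted p was 0.137. In PWK/PhJ the Tat change was -0.58 with all animals and -1.08 without isoniazid animal 1 (adjusted p = 0.149 and 0.00145).

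Agxt encodes alanine-glyoxylate aminotransferase, which removes glyoxylate and whose loss causes primary hyperoxaluria in people. Its vehicle means ran from 10.22 through 11.33 to 12.01 and its isoniazid means from 9.65 through 11.39 to 12.00. The change over strains was 0.07 with a standard error of 0.06 (adjusted p = 0.474), and 18 of 31 strains were above 0. The 2 strains in which Agxt passed went in opposite directions. In C58/J, vehicle values of 9.99, 9.95, 10.61 and 10.34 rose to 11.21, 11.57, 10.86 and 11.37 under isoniazid (2.04-fold, adjusted p = 9.60e-07). In PWK/PhJ, vehicle values of 10.61, 10.46, 10.71 and 10.69 stood against 10.54, 9.35, 9.79 and 8.93 under isoniazid. The mean was 1.95-fold lower (limma adjusted p = 7.49e-07, on the spread pooled over all groups, residual SD 0.23). The PWK/PhJ isoniazid animals themselves had a wider SD of 0.69, which that p does not measure. PWK/PhJ isoniazid animal 1 was within the vehicle range of Agxt, and without it the change was -1.26.

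Agxt2 encodes a mitochondrial alanine-glyoxylate aminotransferase that also breaks down asymmetric dimethylarginine, an inhibitor of nitric oxide synthesis, and beta-aminoisobutyrate. It was higher with isoniazid in all 31 strains, as were 0.105% of all genes (19 genes). Vehicle means ran from 6.98 through 8.13 to 8.64 and isoniazid means from 7.84 through 8.54 to 8.94. The mean went from 8.04 ± 0.36 to 8.47 ± 0.25, a log2 change of 0.43 with a standard error of 0.04 (adjusted p = 6.91e-09), which ranked 31 among all genes by p. Over the 10 scan sessions the strain-centred difference ran from 0.34 to 0.59. Agxt2 passed within 9 strains. In 16 strains all isoniazid animals lay above all vehicle animals, against 5.04% of the pairs of a gene and a strain over all genes.

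The strains at the ends of the Agxt2 response also lay at the ends of the vehicle order. C58/J, lowest with vehicle at 7.02, 7.24, 6.69 and 6.95, reached 7.96, 8.09, 7.95 and 8.15 with isoniazid (2.08-fold, adjusted p = 1.08e-07). C57BR/cdJ, second lowest, changed by 0.90. BALB/cJ, highest with vehicle at 8.75, 8.55, 8.56 and 8.69, had 8.59, 8.70, 8.74 and 8.62 with isoniazid, a change of 0.02 with full overlap. A change and the vehicle level it is taken from share the same vehicle animals, so no relation between the 2 was tested. Agxt2 responded more than Agxt in all but 3 of 31 strains, with Agxt minus Agxt2 at -0.37 ± 0.32 (n = 31, permutation p = 1.00e-05, the smallest that the resamples can give, adjusted 3.00e-05).

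**Figure D2:**
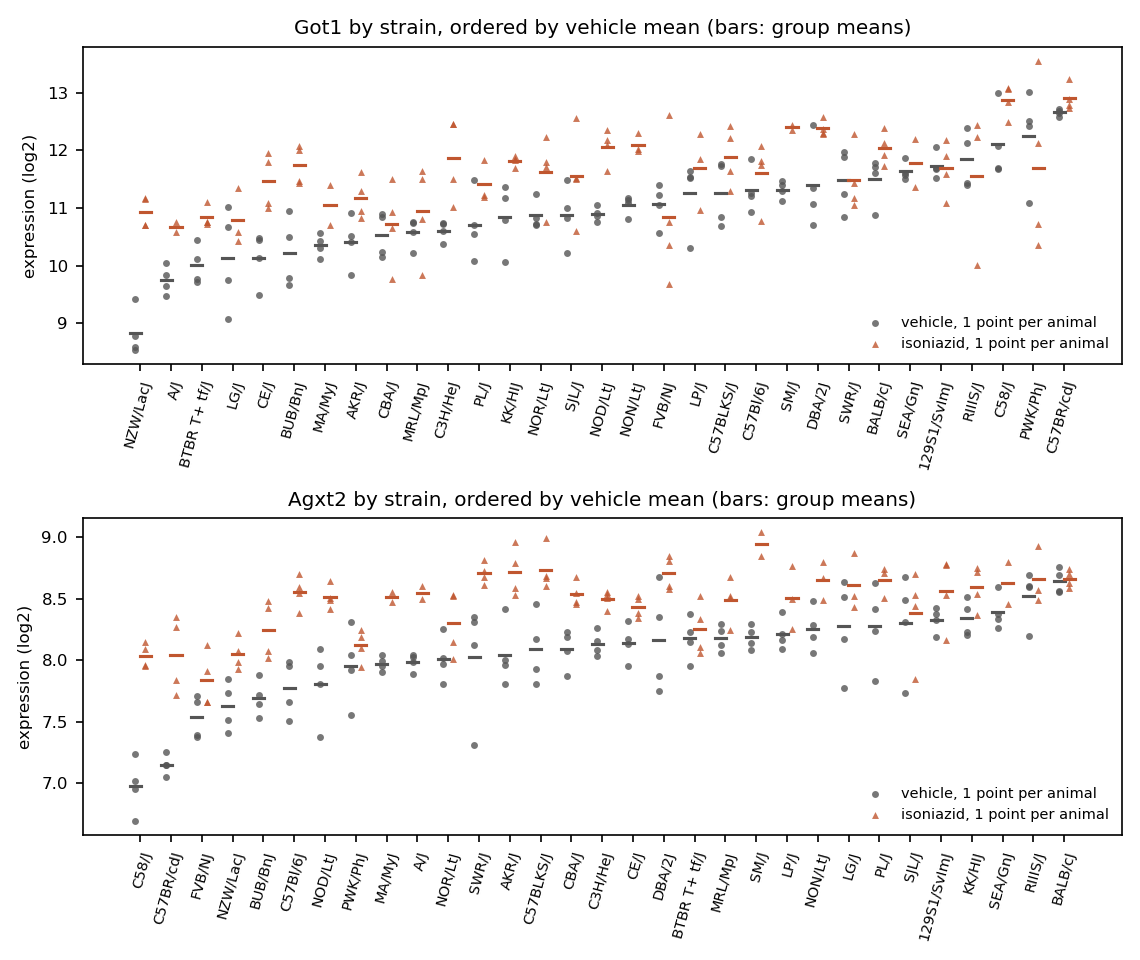
Expression (log2) of Got1 in the upper panel and Agxt2 in the lower panel in every animal, by strain on the horizontal axis in the order of the vehicle mean, with vehicle animals as grey circles, isoniazid animals as red triangles and group means as bars. The Got1 vehicle means run from 8.83 in NZW/LacJ to 12.66 in C57BR/cdJ, and the red bar of Agxt2 lies above the grey bar in all 31 strains.

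Kynu encodes kynureninase, which acts in the pathway from tryptophan to NAD. Its vehicle means ran from 8.74 through 9.05 to 10.33, and its isoniazid means from 8.83 through 9.41 to 10.57. The mean went from 9.11 ± 0.31 to 9.45 ± 0.35, a log2 change of 0.34 with a standard error of 0.04 (adjusted p = 3.98e-07), with 29 of 31 strains higher. In 17 strains, more than for any other gene of the group, all isoniazid animals lay above all vehicle animals. Over all genes, 5.04% of the pairs of a gene and a strain did so. In BUB/BnJ the 4 vehicle animals had 9.44, 9.40, 9.65 and 9.25 and the 4 isoniazid animals 10.28, 10.27, 10.24 and 10.37 (1.81-fold, adjusted p = 0.00151). Kynu also passed within NOD/LtJ, BTBR T+ tf/J, NOR/LtJ and NZW/LacJ. In PWK/PhJ its change was -0.26 with all animals and -0.56 without isoniazid animal 1 (adjusted p = 0.351 and 0.00776). A second, dim Kynu probe set changed by 0.57 in the same direction.

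Oat encodes ornithine aminotransferase, the mitochondrial enzyme that links ornithine with glutamate and proline. Its vehicle means ran from 11.69 through 12.62 to 13.15 and its isoniazid means from 12.32 through 12.89 to 13.19. The mean went from 12.55 ± 0.32 to 12.83 ± 0.22, a log2 change of 0.28 with a standard error of 0.05 (adjusted p = 4.28e-05), with 28 of 31 strains higher. In NZW/LacJ, vehicle values of 11.51, 11.52, 11.80 and 11.95 rose to 12.69, 12.65, 12.75 and 12.65 (1.99-fold, adjusted p = 4.24e-08). Oat also rose within BUB/BnJ and AKR/J. PWK/PhJ went the other way, from 13.11, 13.14, 13.15 and 13.19 with vehicle to 13.52, 12.16, 11.92 and 12.32 with isoniazid. The mean was 1.59-fold lower (limma adjusted p = 0.000265, on the spread pooled over all groups, residual SD 0.21). The PWK/PhJ isoniazid animals themselves had a wider SD of 0.71, which that p does not measure. Isoniazid animal 1 of PWK/PhJ was above all 4 vehicle animals and the other 3 were below all of them, and without it the change was -1.02.

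Aadat encodes the aminotransferase that acts on alpha-aminoadipate, in lysine breakdown, and on kynurenine. Over strains its mean was 10.05 ± 0.25 with vehicle and 10.08 ± 0.41 with isoniazid, a change of 0.03 with a 95% interval of -0.06 to 0.13 (adjusted p = 0.71). It was above 0 in 21 strains, with a highest value of 0.36 in BUB/BnJ, and passed in 0 of these. It was called lower in 4 strains, more than any other gene of the group. In NZW/LacJ, vehicle values of 9.81, 9.61, 9.90 and 9.65 fell to 9.23, 9.002, 9.04 and 9.25 (1.53-fold lower, adjusted p = 0.00038). In LG/J, vehicle values of 10.32, 10.06, 10.26 and 9.78 stood against 9.25, 9.46 and 9.94 in the 3 isoniazid animals, a change of -0.56. The changes in BTBR T+ tf/J and PWK/PhJ were -0.49 each.

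Counted over the 310 pairs of a gene of the group and a strain, 32 were called higher and 6 lower. Without PWK/PhJ isoniazid animal 1, 36 were called higher and 10 lower. Over all genes, 1.27% of such pairs were called higher and 0.723% lower. Without overlap between the animals were 92 of the 310 pairs upward and 7 downward, against 5.04% and 4.53% of such pairs over all genes. NZW/LacJ had the most calls, 6 genes higher (Got1, Got2, Tat, Agxt2, Kynu and Oat) and Aadat lower, in a strain where 12.7% of all genes were called. AKR/J and C58/J had 4 genes higher each, with 2.72% and 4.92% of all genes called. PWK/PhJ had Got2 and Gpt higher and Agxt, Oat and Aadat lower, with 15.1% of all genes called. Isoniazid animal 1 of PWK/PhJ was left out only after its values in these genes were seen. Without it, Got1, Gpt2, Tat and Kynu were called lower there too, 7 genes lower in all, and these added calls depend on that choice. In 17 strains 0 of the 10 genes passed, A/J and PL/J among them, in which 0 of all genes passed.

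**Figure D3:**
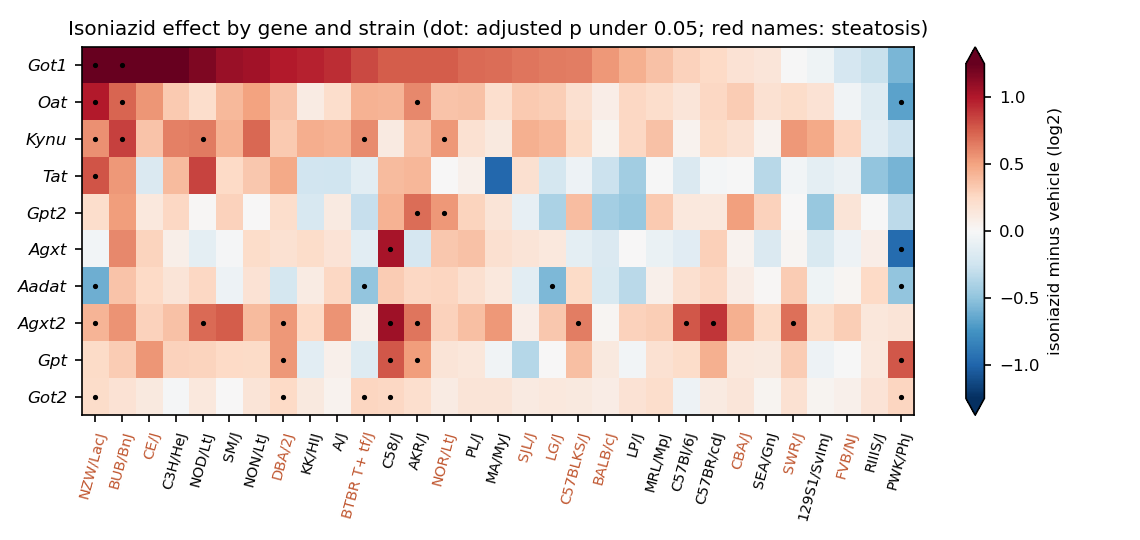
Isoniazid effect (log2, colour scale cut off beyond its ends) for the 10 genes in rows and the 31 strains in columns, ordered by the Got1 effect, with a dot where the change within the strain had an adjusted p under 0.05 and red names for steatosis strains. Got1 and Oat are highest in NZW/LacJ and then BUB/BnJ, Got1, Oat and Kynu are lowest in PWK/PhJ, and Aadat is lowest in NZW/LacJ.

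The isoniazid effect differed among strains beyond the spread of animals for 9 of the 10 genes (limma F test over 30 contrasts), against 17.0% of all genes. With the dimmest 40% of genes left out, 9 members and 3316 of 10888 genes passed, a larger share. The F values were 4.07 for Aadat, 3.94 for Agxt, 3.77 for Gpt2, 3.48 for Oat, 3.00 for Gpt, 2.65 for Agxt2, 2.21 for Kynu, 2.13 for Got1 and 1.94 for Tat. Got2 did not pass (F = 1.23, adjusted p = 0.389). Got1 and Tat had the widest spread of animals within a group, with residual SDs of 0.54 and 0.39 against 0.10 to 0.23 for the other 8. Their calls were the weakest, at adjusted p = 0.012 and 0.031, and were lost without the 21 arrays of narrow spread (0.0649 and 0.0994). With each animal number left out in turn, which leaves 3 or fewer animals a group, the calls of Got1 and Tat were lost in 3 of 4 fits each, that of Kynu in 2, and those of Gpt and Agxt2 in 1 each.

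The steatosis code was compared with both the response and the vehicle level, in 13 against 18 strains. For the response, 0 of the 10 genes and 0.00% of all genes passed limma at an adjusted p under 0.05. At an unadjusted p under 0.05 there were 2.71% of all genes (491), and 0 of the 10. The Got1 change was 0.77 ± 0.63 in steatosis strains and 0.55 ± 0.51 in the others, a difference of 0.21 with a 95% interval of -0.17 to 0.60. For Oat the difference was 0.16 (-0.03 to 0.36), for Kynu 0.13 (-0.05 to 0.30), for Agxt2 -0.12 (-0.30 to 0.05) and for Aadat -0.15 (-0.34 to 0.05). These intervals do not show that the response was equal.

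Among vehicle animals, Got1 was 10.64 ± 0.77 in steatosis strains and 11.19 ± 0.75 in the others, a difference of -0.55 (95% interval -1.08 to -0.01, limma adjusted p = 0.988). Tat was 11.51 ± 0.49 and 11.92 ± 0.67, a difference of -0.42 (-0.85 to 0.01, adjusted p = 0.988). Of the 10 genes, 0 passed the adjustment, as did 0.00% of all genes, and 4.06% of all genes (737) had an unadjusted p under 0.05, Got1 among them and the other 9 members not. Taking animals as replicates, which treats animals of one strain as independent, both passed (adjusted p = 0.0397 for Got1 and 0.0474 for Tat).

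In vehicle liver, all 10 genes differed among the 31 strains beyond the spread of animals (limma F test), as did 53.4% of all genes. With the dimmest 40% of genes left out, 8348 of 10888 did so, a larger share. The range of strain means was 14.2-fold for Got1, 7.36-fold for Tat, 3.56-fold for Gpt2, 3.46-fold for Agxt, 3.17-fold for Agxt2, 3.00-fold for Kynu, 2.74-fold for Oat, 2.37-fold for Aadat, 2.29-fold for Gpt and 1.34-fold for Got2. The 2 aspartate aminotransferases thus stood at the 2 ends, the cytosolic gene with the widest range among strains and the mitochondrial gene with the narrowest. The highest F value, 18.3, belonged to Gpt2, from 10.37 in AKR/J to 12.20 in PWK/PhJ.

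The same few strains stood at the ends of several genes. C57BR/cdJ was highest in Got1, at 12.58, 12.71, 12.69 and 12.66, and in Tat, at 13.38, 13.26, 13.33 and 13.15. It was also highest in Kynu, second highest in Gpt2 and Oat, lowest in Got2 and second lowest in Gpt and Agxt2. NZW/LacJ was lowest in Got1, Tat and Oat and second lowest in Aadat. PWK/PhJ was highest in Gpt2 and Oat, second highest in Got1 and Tat, lowest in Aadat, and second lowest in Got2 and Agxt. Most neighbours in the order of strains overlapped in their animals. Of the 30 steps between neighbours, 1 was free of overlap for Got1 (NZW/LacJ below A/J), for Agxt2 (C57BR/cdJ below FVB/NJ), for Kynu (RIIIS/J below C57BR/cdJ), for Oat (C57BR/cdJ below PWK/PhJ) and for Aadat (PWK/PhJ below NZW/LacJ), and 0 for the other 5 genes. The end strains of Gpt2 were the same on all 4 of its probe sets, AKR/J lowest and PWK/PhJ highest. Those of Got2 and Gpt depended on the probe set. The second bright Got2 probe set was lowest in PWK/PhJ and highest in LP/J, and the second Gpt probe set lowest in C57BR/cdJ and highest in SJL/J. On the second, dim Kynu probe set C57BR/cdJ was again highest, and BUB/BnJ lowest in place of LP/J.

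Levels of several genes went together from strain to strain. Of 45 pairs of genes, 18 passed for vehicle means (Pearson r, permutation test with 100000 resamples, Benjamini-Hochberg over the 45), 15 positive and 3 negative. The closest pair was Got1 and Tat, with r = 0.87 (Spearman rho = 0.85, each with adjusted permutation p = 0.00045, n = 31). It was 0.80 without NZW/LacJ and C57BR/cdJ, the 2 strains farthest from the median of Got1, and 0.86 both within steatosis strains and within the others. Got1 and Oat had r = 0.66 (rho = 0.57, adjusted permutation p = 0.0009 and 0.00733), and Tat and Oat 0.63 (rho = 0.62, adjusted permutation p = 0.0018 and 0.0033). A second set of pairs joined Got2 and Gpt (r = 0.65, rho = 0.65, adjusted permutation p = 0.00135 for both), Gpt and Agxt2 (0.60, rho = 0.60, adjusted permutation p = 0.00405 and 0.00495) and Got2 and Agxt2 (0.58, rho = 0.48, adjusted permutation p = 0.00424 and 0.0326). The 3 negative pairs were Got2 with Kynu (-0.47), Got2 with Gpt2 (-0.46) and Gpt with Kynu (-0.44). Their rank correlations did not pass, at adjusted permutation p = 0.212, 0.0826 and 0.266. Nor did those of some positive pairs: Kynu with Got1, Gpt2 and Tat, Aadat with Got2 and Agxt, and Agxt with Agxt2 (adjusted permutation p = 0.0903 to 0.471). Without the 2 farthest strains r was 0.51 for Got1 and Oat, 0.50 for Tat and Oat, 0.65 for Got2 and Gpt, 0.61 for Gpt and Agxt2, and -0.27, -0.25 and -0.35 for the 3 negative pairs.

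Got1 and Tat were the closest pair in vehicle level and Got1 and Oat the closest pair in isoniazid effect, and for these 3 genes the 250 bases before the start site are shown, from RefSeq on build GRCm38.p6. Capitals mark the letters CCAAT on either strand and, in Got1, also TGATGCAA, the core of the amino acid response element, here on the reverse strand. The Got1 window is chr19:43524606-43524855 (minus strand), the Tat window chr8:109990186-109990435 (plus strand) and the Oat window chr7:132576399-132576648 (minus strand).
Got1: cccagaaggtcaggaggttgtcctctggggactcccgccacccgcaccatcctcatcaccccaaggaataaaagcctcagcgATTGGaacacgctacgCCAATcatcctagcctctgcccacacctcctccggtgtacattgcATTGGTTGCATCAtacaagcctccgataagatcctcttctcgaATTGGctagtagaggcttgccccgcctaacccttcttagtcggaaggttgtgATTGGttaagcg
Tat: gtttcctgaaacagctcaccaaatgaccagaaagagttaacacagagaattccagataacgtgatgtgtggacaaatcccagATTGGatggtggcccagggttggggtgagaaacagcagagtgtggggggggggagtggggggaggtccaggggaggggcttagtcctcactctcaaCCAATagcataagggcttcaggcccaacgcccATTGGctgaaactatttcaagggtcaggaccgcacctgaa
Oat: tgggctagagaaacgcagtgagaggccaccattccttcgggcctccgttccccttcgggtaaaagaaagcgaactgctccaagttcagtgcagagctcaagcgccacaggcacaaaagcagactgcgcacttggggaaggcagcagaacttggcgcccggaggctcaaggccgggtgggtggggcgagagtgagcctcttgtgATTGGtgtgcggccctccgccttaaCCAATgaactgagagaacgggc
The Got1 window holds 5 CCAAT copies and 1 TGATGCAA, which share no base, the Tat window 3 CCAAT copies and the Oat window 2. Of all 32851 promoter windows of the same length, 33.8% hold CCAAT and 0.791% hold TGATGCAA, searched on both strands. Of the other motifs searched, the TATA box letters TATAAA were held by 12.4% of windows and the E box letters CACGTG by 6.02%. The letters TGTTCT, part of a glucocorticoid receptor site, were held by 16.1%, and TGACG, part of a cyclic AMP response site, by 17.8%. The 3 windows shown hold 0 of these 4 motifs. Windows were found for 8 of the 10 genes, and among the 5 not shown CCAAT was found in 0. CCAAT was thus held by 3 of these 8 genes, near the 33.8% of all windows. Among the 5 not shown, Got2 and Agxt2 held TATAAA and Agxt held TGTTCT. The start used for Tat lies inside the gene record, which begins upstream of it. A match of letters describes the window and is not a binding site.

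**Figure D4:**
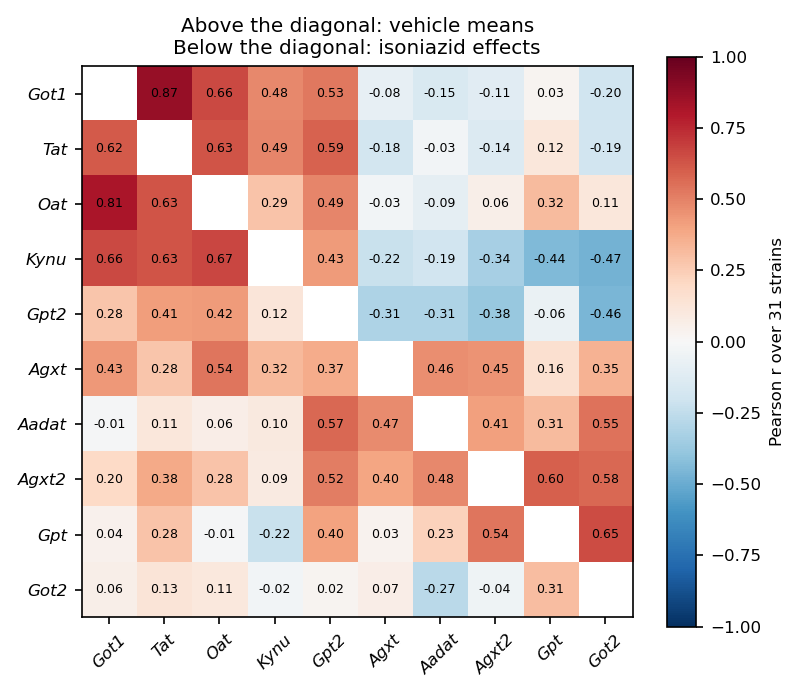
Pearson r over 31 strains for every pair of the 10 genes, with vehicle means above the diagonal and isoniazid effects below it. The closest pair for vehicle means is Got1 with Tat at 0.87, and the closest for isoniazid effects is Got1 with Oat at 0.81.

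For the isoniazid effect, 12 of the 45 pairs passed, and all 12 were positive. All effects of a strain come from the same animals and arrays, which the members of a pair share. Got1 and Oat led with r = 0.81 (rho = 0.72, n = 31, adjusted permutation p = 0.00045 and 0.00135). Without NZW/LacJ and PWK/PhJ, the 2 strains at the ends of Got1, r was 0.70, and it was 0.92 within steatosis strains and 0.72 within the others. Got1, Tat, Kynu and Oat formed 6 pairs, and all 6 passed, at r = 0.62 to 0.81. Among them Got1 and Tat, at 0.62 (rho = 0.58, adjusted permutation p = 0.00255 and 0.00765), were joined, with Got1 called higher over strains and Tat not called. Without the same 2 strains this r was 0.48. A further set joined Gpt2 with Aadat (0.57), Gpt with Agxt2 (0.54), Gpt2 with Agxt2 (0.52), Agxt2 with Aadat (0.48) and Agxt with Aadat (0.47). Without PWK/PhJ and C58/J, the 2 strains at the ends of Agxt, r for Agxt with Aadat was 0.305. Agxt and Oat had r = 0.54, and 0.26 without the same 2 strains. With PWK/PhJ and NZW/LacJ both left out, Got1 and Tat in vehicle liver were at 0.83 and Got1 and Oat in their effects at 0.70.

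**Figure D5:**
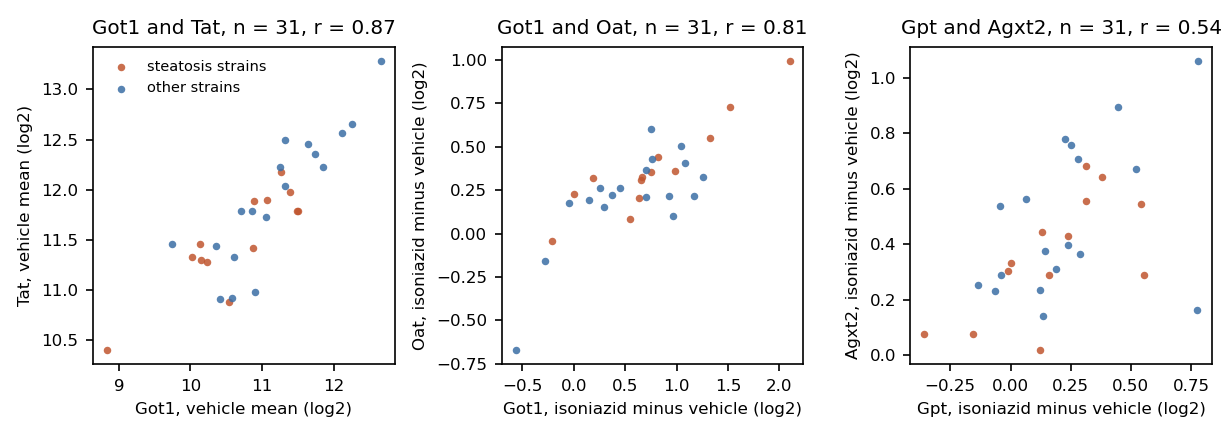
Strain values of pairs of genes, 1 point per strain and coloured by the steatosis code: vehicle means (log2) of Got1 and Tat on the left, and isoniazid effects (log2) of Got1 and Oat in the middle and of Gpt and Agxt2 on the right. Pearson r is 0.87, 0.81 and 0.54, and in the middle panel NZW/LacJ is the point at the upper right and PWK/PhJ the point at the lower left.

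Animals of the same strain and treatment also varied together. Over 173 residual degrees of freedom, deviations from the group mean correlated at 0.72 for Got1 and Tat, 0.58 for Got1 and Gpt2, 0.51 for Got1 and Oat and 0.49 for both Agxt with Oat and Agxt2 with Aadat, given as a description with no test. The lowest value was -0.17, for Got2 and Tat. In PWK/PhJ isoniazid animal 1, for example, Got1, Tat and Oat were each the highest of the 8 animals of the strain, at 13.55, 13.59 and 13.52. In RIIIS/J isoniazid animal 1, Got1 and Oat were the lowest of the 7, at 10.01 and 11.63.

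Beyond the group itself, the genes whose isoniazid effect was most like that of Got1 over 31 strains were Oat (r = 0.81), Fh1, which encodes fumarase (0.79), and Sdc1, a cell surface proteoglycan (0.74). Fh1 rose by 0.43 (adjusted p = 7.85e-10), whereas Sdc1 was at 0.05 (adjusted p = 0.314). Those most like Agxt2 were Sdhb (0.78) and Ndufs3 (0.76), subunits of respiratory complexes, and Dmgdh (0.75), the mitochondrial dimethylglycine dehydrogenase, which rose by 0.19, 0.13 and 0.27 (adjusted p = 3.16e-06, 0.000102 and 1.88e-06). These are the top of a ranking over all genes and carry no test.

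Genes that work beside these enzymes were read from lists made for each. Over all genes, 10.2% were called higher and 9.85% lower. Several counts in the lists below lie near these shares, and no list was tested as a set. Of 8 genes of the malate-aspartate shuttle and glutamate metabolism, 4 rose and 1 fell, with a median of 0.14 beside 0.001 for all genes. The mitochondrial carrier Slc25a11 and the malate dehydrogenase Mdh2 rose by 0.28 each, and Glud1, glutamate dehydrogenase, fell by 0.27. Glul, glutamine synthetase, was at 0.00 and did not pass. Of 7 alanine and pyruvate genes, Pcx, pyruvate carboxylase, and Ldha, lactate dehydrogenase, rose by 0.23 and 0.14, while the amino acid transporter Slc38a2 fell by 0.32 (median 0.06). The amino acid transporter Slc1a5 was at 0.02 and did not pass.

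Although Tat itself did not pass, 5 of 6 other genes of tyrosine breakdown rose and 0 fell, with a median of 0.10. Hgd, homogentisate dioxygenase, rose by 0.23, Hpd, the dioxygenase next after Tat, by 0.10 and Qdpr, which regenerates the cofactor of phenylalanine hydroxylase, by 0.10. Fah, the last enzyme of the pathway, was at -0.01. Of 11 glucocorticoid, glucagon and fasting targets, 1 rose and 3 fell, with a median of -0.11. Cps1, the first enzyme of the urea cycle, rose by 0.17. The glucocorticoid receptor gene Nr3c1 fell by 0.13 and its target Tsc22d3 by 0.28. Tdo2, tryptophan dioxygenase, was at -0.03 and did not pass.

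Around Agxt, 2 of 8 genes of glyoxylate handling rose and 1 fell (median 0.09). Gnmt, glycine methyltransferase, rose by 0.21, Hoga1, which forms glyoxylate from hydroxyproline, by 0.18, and Pipox, which oxidises pipecolate and sarcosine, fell by 0.29, with Grhpr, glyoxylate reductase, at 0.01. Around Agxt2, 1 of 8 genes of dimethylarginine and beta-aminoisobutyrate metabolism rose and 3 fell (median -0.03). Slc6a13, a transporter of taurine and gamma-aminobutyrate, fell by 0.29 and Dpys, of pyrimidine breakdown, by 0.23, while Upb1, also of pyrimidine breakdown, rose by 0.14 and Dpyd was at 0.00.

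Around Kynu and Aadat, 3 of 7 kynurenine pathway genes rose and 1 fell (median -0.03). Kmo, which makes the substrate that Kynu cleaves, and Qprt, which forms the nicotinate nucleotide, rose by 0.21 each. Afmid, kynurenine formamidase, fell by 0.26, and Haao was at -0.03. Around Oat, 3 of 7 ornithine and proline genes rose and 1 fell (median 0.09): Pycrl, a pyrroline carboxylate reductase, rose by 0.31 and the ornithine carrier Slc25a15 by 0.26, Prodh, proline dehydrogenase, fell by 0.54, and Otc, ornithine transcarbamylase, was at 0.01. Of 6 lysine breakdown genes, Dlst and Aldh7a1 rose by 0.25 and 0.15 and 0 fell (median 0.01), with Aass at 0.00.

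Other enzymes with this cofactor were called in both directions. Of 10 genes listed as other aminotransferases or relatives of the same fold family, 3 rose and 1 fell (median 0.03). Among the 3 that rose, Psat1 alone is an aminotransferase. Psat1, phosphoserine aminotransferase, rose by 0.93 with a standard error of 0.27, in 20 of 31 strains and from a dim level of 2.97. Etnppl and Phykpl, phospholyases of the same fold family, rose by 0.49 and 0.30, and Kyat1, another kynurenine aminotransferase, fell by 0.27, while Bcat1 was at -0.02. Of 23 other pyridoxal phosphate enzymes, 7 rose and 2 fell (median 0.02). Csad, cysteine sulfinate decarboxylase of taurine synthesis, fell by 1.39, a 2.62-fold lower mean, and was lower in 30 of 31 strains. Alas1, the first enzyme of haem synthesis, rose by 0.80 and Shmt2 by 0.21, and Thnsl1 was at -0.00. Of 4 genes that supply or use up vitamin B6, Pdxp, pyridoxal phosphatase, rose by 0.14 and Aox3, an aldehyde oxidase, fell by 0.30 (median 0.02), with Aox1 at -0.05. The Pdxp call was lost without animal number 1, 3 or 4 (adjusted p = 0.112, 0.0662 and 0.0893) and in the strains without deaths (0.08, adjusted p = 0.326).

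Markers of liver cell types were read on the same arrays, beside 10.2% of all genes called higher and 9.85% lower. Of 4 hepatocyte markers, Alb, Ttr and Apoa1 did not pass and Hnf4a fell by 0.20 in all 31 strains. Of 9 Kupffer cell markers, 7 fell and 0 rose, with a median of -0.24. Their summed level per strain ran from 10.23 to 12.59 with vehicle and from 9.63 to 12.81 with isoniazid. Of 6 endothelial markers 2 fell, and of 5 stellate cell markers 1 fell. Of 4 bile duct markers 1 fell, and of 6 blood and immune cell markers 1 fell. Of 6 pancreas markers 1 rose, and of 6 kidney markers 0 were called. Of 7 pericentral markers 2 rose and 4 fell, and of 5 periportal markers 1 rose, Cps1. Fewer cells of a type and less RNA per cell cannot be told apart in whole tissue, and the part of these shifts in the results above was not tested.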

How the data were processed

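Liver RNA was hybridised to Affymetrix mouse arrays, 1 array per animal, after 3' in vitro transcription labelling. The deposited file holds log2 expression of probe sets, which the authors computed by RMA, run in Affymetrix Power Tools (submitters' processing notes). The sources used here give no version or genome build. RMA equalises the distributions of arrays, which removes a shift common to all genes. The number of arrays limits the precision.

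Of 44721 probe sets, 34717 had 1 gene symbol in the platform annotation, control probe sets left out, giving 18146 genes. Where a gene had several probe sets, the brightest on average was taken, with no filter on dim genes. Effects are isoniazid minus vehicle means per strain, tested over 31 strains with limma 3.58.1 in R 4.3.3 (lmFit, eBayes, two-sided, Benjamini-Hochberg over all genes). Every p over strains, those of the permutation tests included, treats the strains as independent, and relatedness among strains was not modelled. Effects within a strain, the strain by treatment interaction and vehicle strain differences used a limma fit of 62 groups with animals as replicates (173 residual degrees of freedom). The spread was pooled over all groups, so a p within a strain does not measure the spread of that strain's own animals. The comparison over strains was also run on simulated data, with independent noise for each gene and the same spread in every group. Those data lack genes that vary together and groups of wider spread, so they check the calculation and not the calls above. The members and lists were chosen with earlier results of these data known. Named beside the 10 genes are, for each list, up to 3 genes with the smallest p among those called and the 1 with the largest p, the 3 genes most like Got1 and Agxt2, and the strains at the ends of each gene.

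The labels number the animals 1 to 4 in both arms without saying that a number marks a shared cage or day. Deviations of same-numbered animals correlated at a median of -0.02 over 111 pairs, and 23 pairs exceeded 0.1, so the numbers were not taken to pair animals. The labels do not say whether animals of a strain were littermates. Alternatives were scan session as a term, strains weighted by animals, eBayes with trend and robust settings, other probe sets, a filter on dim genes, centring, leaving out animals, strains or arrays of narrow spread, and the animal number as a block.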

Additional observations from a re-analysis of the deposited data

Results flagged for a closer look

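Among 61 groups of 4 animals checked for the genes and strains named above, 5 held an animal far from the other 3, and chance flags about 1 in 20 groups. In C57Bl/6J with vehicle, 1 animal had Got2 at 11.91 while the others lay at 11.79 to 11.80. In C58/J with vehicle, 1 animal had Gpt at 10.33 against 10.70 to 10.74. For Gpt2, 1 vehicle animal of 129S1/SvImJ had 11.42 against 11.13 to 11.16, and 1 of AKR/J had 10.10 against 10.43 to 10.49. In C57BR/cdJ with vehicle, 1 animal had Kynu at 10.47 against 10.26 to 10.29.

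The isoniazid effect differed among the 31 strains for 9 of the 10 genes by the limma interaction test over 30 contrasts. F was 4.07 for Aadat (adjusted p = 1.74e-07), 3.94 for Agxt (3.93e-07), 3.77 for Gpt2 (1e-06), 3.48 for Oat (6e-06) and 3.00 for Gpt (9.97e-05). It was 2.65 for Agxt2 (0.000741), 2.21 for Kynu (0.00793), 2.13 for Got1 (0.012) and 1.94 for Tat (0.031). For Agxt the strains at the ends were C58/J at 1.03 and PWK/PhJ at -0.96, and for Aadat they were BUB/BnJ at 0.36 and NZW/LacJ at -0.61.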

How the results depend on the processing

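The calls of Got1, Got2, Gpt, Agxt2, Kynu and Oat over strains held under every alternative run except other probe sets of Got2 (0.02 and 0.02) and Gpt (0.01) and, for all but Got1, the added 1.5-fold limit, under which 54 genes passed (17 higher), 1 of them a member. Leaving out 1 animal number, 2851 to 3160 genes passed, and leaving out 1 strain, 3366 to 3787, with 6 members in every case. With the animal number as a block, the count was 3623 genes and 6 members, against 3636 and 6 without it, and the block changed no other call. Gpt2 passed with animals as replicates (0.10, adjusted p = 0.0181) and with the mean of its probe sets (0.17, 0.0126). With animals as replicates, 273 genes and 2 members differed in vehicle liver by steatosis code, and 0 to 1 genes when 1 animal number or 1 strain was left out. Gpt minus Gpt2 was 0.12 with scan session as a term (adjusted permutation p = 0.0481) and 0.0827 to 0.148 without 1 animal number, passing without number 1 (0.0173). The interaction passed for 1313 to 2194 genes and 6 to 7 members without 1 animal number, when fewer animals remained: Got1, Gpt, Tat, Agxt2 and Kynu each lost it in at least 1 such fit, and without PWK/PhJ isoniazid animal 1 it passed for 3399 genes and 9 members. Kynu lost it also with the mean of its probe sets (0.0902). Of 2381 single-gene results under other settings, 25 lost a call, 5 gained one and 0 called values changed sign. Lost list calls were those of Pdxp, Aldh7a1, Dpys and Kyat1 in the strains without deaths, of Pdxp without number 1, 3 or 4, and of Aldh7a1 and Etnppl with the mean of probe sets. Without PWK/PhJ and NZW/LacJ, chosen after their values were seen, 6 members passed, with Got1 at 0.64. Centring the arrays moved the median of all genes from 0.001 to 0.011.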
